A study of Mus musculus with 20 samples.

Results

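The cells described here are the monocyte-derived macrophages (MDMs) of PLX5622-fed mice. They are the 270 cells that the authors' clustering placed in cluster 1 of 14 clusters in the 3 libraries made from PLX5622-fed mice. The series holds 21016 cells, of which 1936 came from PLX5622-fed mice and 6791 belong to the MDM cluster. Of the 270 MDMs, 9 came from sham cords, 100 from cords at 7 days post-injury (dpi) and 161 from cords at 28 dpi. The other 6521 cells of the cluster came from vehicle-fed mice (185 sham, 3023 at 7 dpi and 3313 at 28 dpi) and are used as a reference only.

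All libraries came from female C57BL/6J mice that were 8 to 10 weeks old and carried no transgene named in the labels. Mice ate chow with 1200 ppm PLX5622 or vehicle chow from 2 weeks before a thoracic contusion (SCI) or a laminectomy without contusion (sham), and stayed on it until 7 or 28 days after surgery. PLX5622 blocks the *Csf1* receptor, so every PLX5622 group differs from its vehicle group by the drug itself as well as by the loss of microglia. Each library pooled unperfused cords of 3 to 4 mice, the PLX5622 sham library is labelled with both time points, and there is 1 library per condition.

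After SCI, monocytes leave the blood, enter the lesion and become macrophages that take up myelin and dead cells. Cells that carry much lipid build up lysosomes, export cholesterol on lipoproteins and express a set of genes that includes *Gpnmb*, a glycoprotein of lysosomal membranes, *Spp1* (osteopontin), a secreted matrix protein, and *Fabp5*, a carrier of fatty acids. Microglia, the resident macrophages of the cord, share many genes with MDMs but keep a signature of their own that includes *P2ry12*, *Tmem119* and *Siglech*.

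The MDMs of PLX5622-fed mice were few but held many unique molecular identifiers (UMIs), each of which stands for 1 captured transcript. They made up 1.83% (95% interval 0.840 to 3.44%) of the cells of the sham library, 19.8% (16.5 to 23.6%) at 7 dpi and 17.1% (14.8 to 19.7%) at 28 dpi. Median UMIs per MDM were 4739, 15945 and 6843, and the cells of a time point together held 64951, 1746444 and 1286952 UMIs. At 7 dpi a single MDM held between 658 and 82077 UMIs, and 54 of 100 MDMs had more than 3000 genes, against 26 of 161 at 28 dpi. The study's methods state an upper limit of 3000 genes per cell, which the deposited table does not keep. In the vehicle libraries, 4.20% of MDMs at 7 dpi and 0.423% at 28 dpi were above that limit. Scrublet, run at an expected rate, called 2, 2 and 7 cells doublets in the whole PLX5622 libraries (sham, 7 dpi and 28 dpi). None of these cells was an MDM, but so few calls cannot show whether the deep MDMs include doublets. Of the 161 MDMs at 28 dpi, 3 carried a barcode that also occurred in another library. Intervals here and below cover counting error only. With 1 library per condition no difference between conditions could be tested, and none has a replicate check.

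The cells at 7 and 28 dpi carried the genes that mark the label, and the 9 sham cells mostly did not. Over all cells of the series, *Gpnmb*, *Spp1*, *Fabp5*, *Ms4a7* and *Lgals3* were each highest in cluster 1 among the 14 clusters, which were built from these same genes. In the sham library, however, *Gpnmb* was found in 1 of 9 cells, *Spp1* and *Fabp5* in 2, *Lgals3* in 3 and *Ms4a7* in none (a 95% interval of 0 to 56.8 CPM, the count scaled to a total of 1000000 UMIs). *Cx3cr1* and *Olfml3* were each found in 8 of those 9 cells, *Siglech* in 6, and *P2ry12* and *Tmem119* in 5. In the MDMs at 7 and 28 dpi *Siglech* was found in 8 of 100 and 27 of 161 cells, and *P2ry12* in 17 of 100 and 29 of 161. These 9 cells are therefore called by their cluster number below, and no ratio is formed on them.

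**Figure D1:**
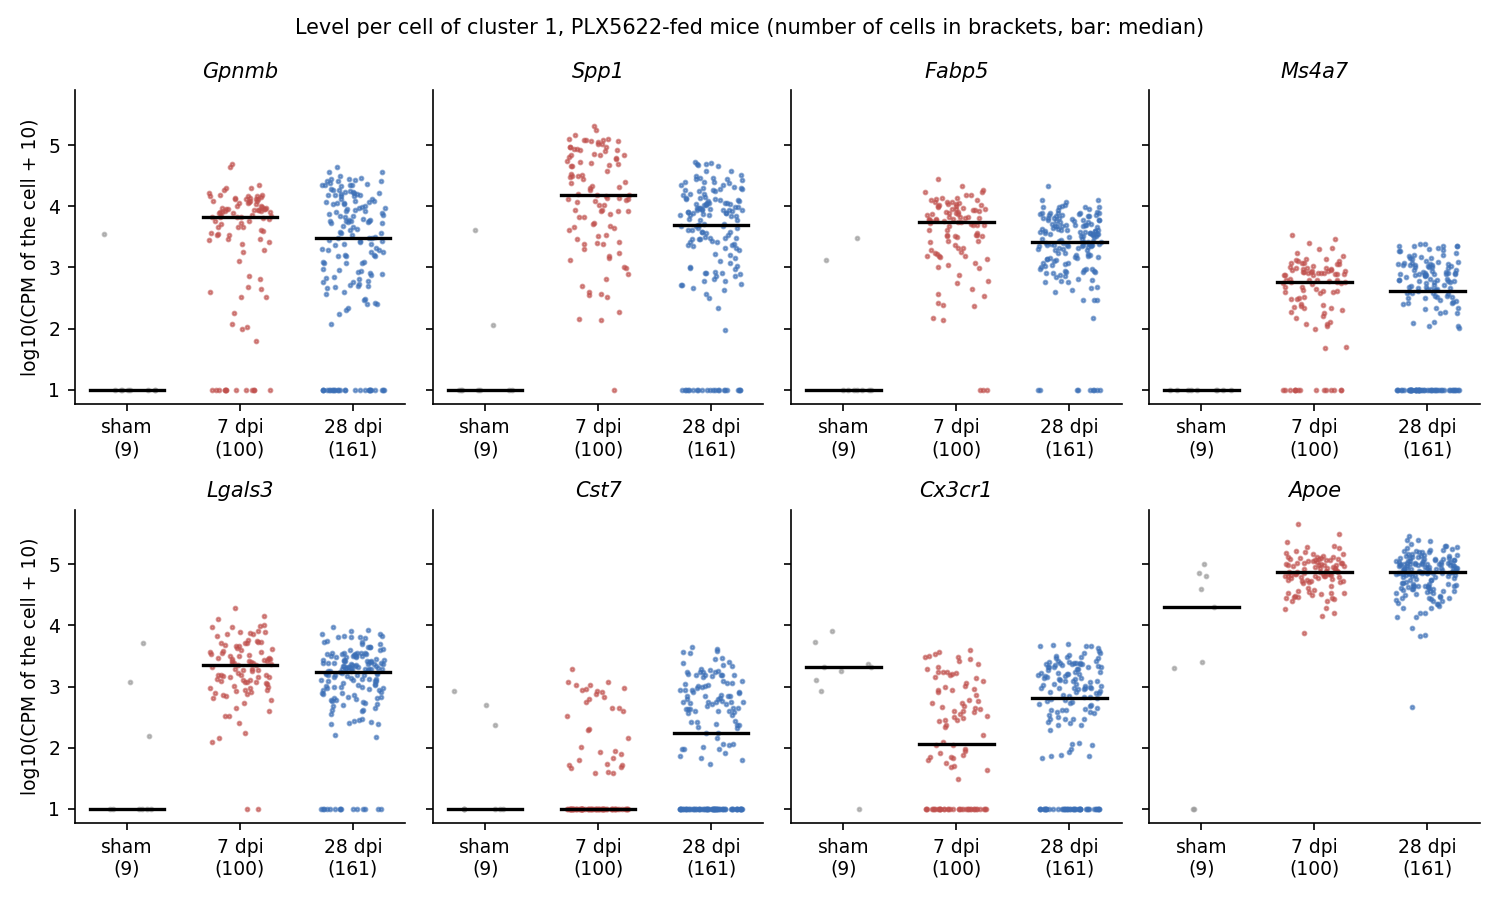
Level of 8 genes in each cell of cluster 1 of PLX5622-fed mice, as log10 of the cell's CPM plus 10, for the 9 cells of the sham library, the 100 at 7 dpi and the 161 at 28 dpi (points: cells, bars: medians, cells without a UMI lie at 1). The label's 5 markers lie mostly at 1 in the sham cells, while *Cx3cr1* is present in 8 of them.

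Of the 5 markers, *Gpnmb* and *Ms4a7* stood at about the same level at both times after SCI, and *Spp1* was far lower at 28 dpi. *Spp1* was at 46905 (46584 to 47227) CPM at 7 dpi and 11415 (11231 to 11601) CPM at 28 dpi, a log2 ratio of -2.04 (-2.06 to -2.01). *Gpnmb* was at 8711 (8573 to 8850) CPM at 7 dpi and 9815 (9645 to 9988) CPM at 28 dpi, a log2 ratio of 0.17 (0.14 to 0.21). *Ms4a7*, a tetraspanning membrane protein of macrophages, was at 605 CPM at both times, with a log2 ratio of 0.002 (-0.13 to 0.14). These intervals do not include the spread between pools of mice, which was not measured. *Fabp5* went from 7752 to 4787 CPM (log2 ratio -0.70, -0.74 to -0.65), and *Lgals3*, which codes for galectin-3, from 3685 to 2571 CPM (-0.52, -0.58 to -0.46).

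The reference cells moved otherwise for *Gpnmb* and *Ms4a7*, while *Spp1*, *Fabp5* and *Lgals3* were lower at 28 dpi under both diets. Log2 ratios of PLX5622 over vehicle at 7 and 28 dpi were 0.30 and 0.99 for *Fabp5* and 0.65 and 0.85 for *Lgals3*. In vehicle-fed mice *Spp1* was at 20649 and 15027 CPM (log2 ratio -0.46), *Gpnmb* at 7783 and 2591 CPM (-1.59) and *Ms4a7* at 709 and 312 CPM (-1.18). The log2 ratio of 28 against 7 dpi under PLX5622 minus that under vehicle was 1.76 (1.72 to 1.80) for *Gpnmb* and -1.58 (-1.61 to -1.55) for *Spp1*. At 28 dpi *Gpnmb* was thus the marker that differed most between the diets, and at 7 dpi it was *Spp1*, with a log2 ratio over vehicle of 1.18 (1.17 to 1.20). Among MDMs with at most 3000 genes, an alternative chosen after the data were seen in which the median log2 ratio of all genes was 0.10, the *Gpnmb* ratio under PLX5622 turned to -0.52 and that of *Ms4a7* to -0.52, and that of *Spp1* stayed between -2.22 and -1.98 under all 11 alternatives. In the same MDMs with at most 3000 genes the log2 ratio of *Fabp5* was -0.003 and that of *Lgals3* -0.38.

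Shares of cells with a transcript were taken after every cell was thinned to 2000 UMIs, which kept 96 of 100 MDMs at 7 dpi and 138 of 161 at 28 dpi. *Gpnmb* was then found in 80.2% (70.8 to 87.6%) and 77.5% (69.7 to 84.2%) of MDMs at the 2 times, *Ms4a7* in 54.2% and 54.3%, and *Spp1* in 93.8% and 84.8%. Before thinning these shares were 87.0% and 83.2% for *Gpnmb*, 85.0% and 67.7% for *Ms4a7*, and 99.0% and 86.3% for *Spp1*. In astrocytes, endothelial and T cells of the same libraries, with medians of 3271 and 2136 UMIs before thinning, *Gpnmb* was found in 6.45% and 8.89% of cells and *Ms4a7* in 1.08% and 1.11%. For *Spp1* these cells reached 44.1% at 7 dpi and 13.9% at 28 dpi, and whether those UMIs were free RNA was not tested.

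Within each time point the MDMs of PLX5622-fed mice spread over a wide range of *Gpnmb* levels. The lower quartile, median and upper quartile of the level per cell were 1139, 6660 and 10953 CPM at 7 dpi, and 488, 3008 and 11118 CPM at 28 dpi, and 87 of 100 and 134 of 161 cells had a UMI of it. To describe what went with this spread, each gene with at least 100 UMIs after thinning was ranked by its Spearman correlation with *Gpnmb* across cells, a choice made after the data were seen. At both times the genes near the top of that order included *Psap*, the precursor of the saposins that help break down sphingolipids in lysosomes (rho 0.64 across 96 cells at 7 dpi and 0.71 across 138 cells at 28 dpi), *Ctsb*, a lysosomal protease (0.55 and 0.61), *Fabp5* (0.55 and 0.59), *Lyz2* (lysozyme, 0.49 and 0.65) and *Pld3* (0.45 and 0.58). At the bottom stood *Cx3cr1*, the fractalkine receptor (-0.45 and -0.62), *Ly86* (-0.46 and -0.58), *Cst3*, the protease inhibitor cystatin C (-0.53 and -0.56), *Tmsb4x* (-0.44 and -0.55) and *Cd52* (-0.42 and -0.46). MDMs rich in *Gpnmb* were thus rich in other lysosomal and lipid transcripts, and MDMs poor in it carried more of genes that microglia also express.

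*Csf1r*, the receptor that PLX5622 blocks, had a rho of -0.46 with *Gpnmb* at 28 dpi, and *Cst7*, a cystatin of activated microglia and macrophages, of -0.42, while neither had enough UMIs after thinning at 7 dpi. *Spp1* followed *Gpnmb* with a rho of 0.56 at 7 dpi and 0.47 at 28 dpi, and *Ms4a7* only at 28 dpi (-0.06 and 0.42). Of the 217 genes ranked at both times, 170 (78.3%) had the same sign. Among the 217 were 73 ribosomal protein genes, of which 72 had a rho below 0 at 7 dpi and 60 at 28 dpi. The median rho of all genes ranked was -0.10 at 7 dpi and -0.05 at 28 dpi. Depth went with this order in part: *Gpnmb* as a share of a cell's UMIs had a rho of 0.34 with the cell's UMIs at 7 dpi and 0.27 at 28 dpi, and *Fabp5* one of 0.56 and 0.47. In the reference cells *Psap* stood at 0.74 and 0.35 and *Cx3cr1* at -0.65 and -0.26 across 2935 and 2871 cells. The cells of a library share their droplets, depth and free RNA, so these coefficients describe 2 libraries and have no p-value.

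**Figure D2:**
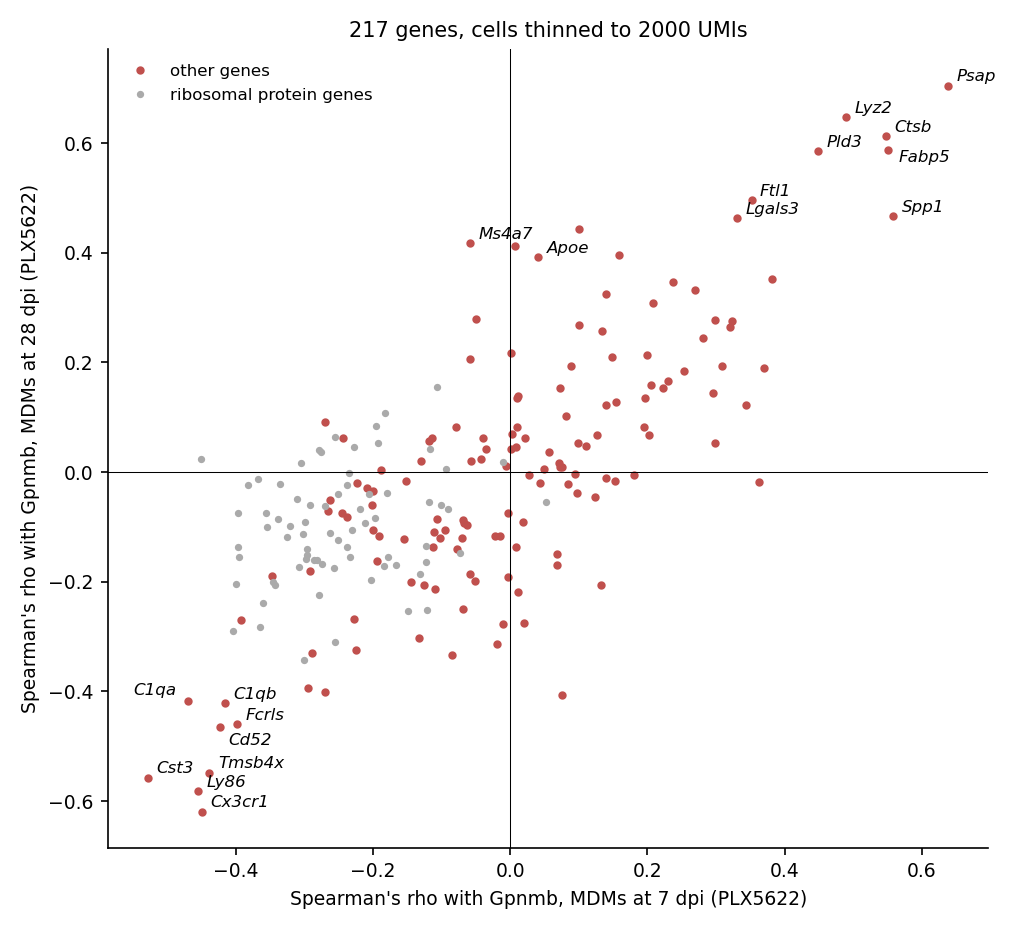
Spearman's rho with *Gpnmb* of 217 genes across MDMs of PLX5622-fed mice thinned to 2000 UMIs, at 7 dpi (x axis) and 28 dpi (y axis), with ribosomal protein genes in grey. *Psap*, *Ctsb*, *Fabp5* and *Lyz2* lie at the upper right and *Cx3cr1*, *Ly86*, *Cst3* and *Tmsb4x* at the lower left.

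Between 7 and 28 dpi, 3203 genes had at least 100 UMIs in the MDMs of PLX5622-fed mice at the 2 times together. Their median log2 ratio was -0.0077. At a log2 ratio of at least 1 in either direction, 66 genes (2.06%) were past 2-fold higher at 28 dpi and 80 genes (2.5%) past 2-fold lower. In the reference cells, with more UMIs, 301 of 9140 genes (3.29%) were past 2-fold higher and 329 (3.6%) lower. The MDMs of both diets shared most directions: of the 66 higher genes 60 also had a ratio above 0 under vehicle (90.9%, against 45.1% of all 3203 genes), and of the 80 lower genes 75 had one below 0 (93.8%, against 54.9%). Past 2-fold in both diets were 29 genes on the higher side, 43.9% of the 66 and 45.3% of the 64 that passed under vehicle, and 52 on the lower side, 65.0% of the 80 and 40.0% of 130.

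**Figure D3:**
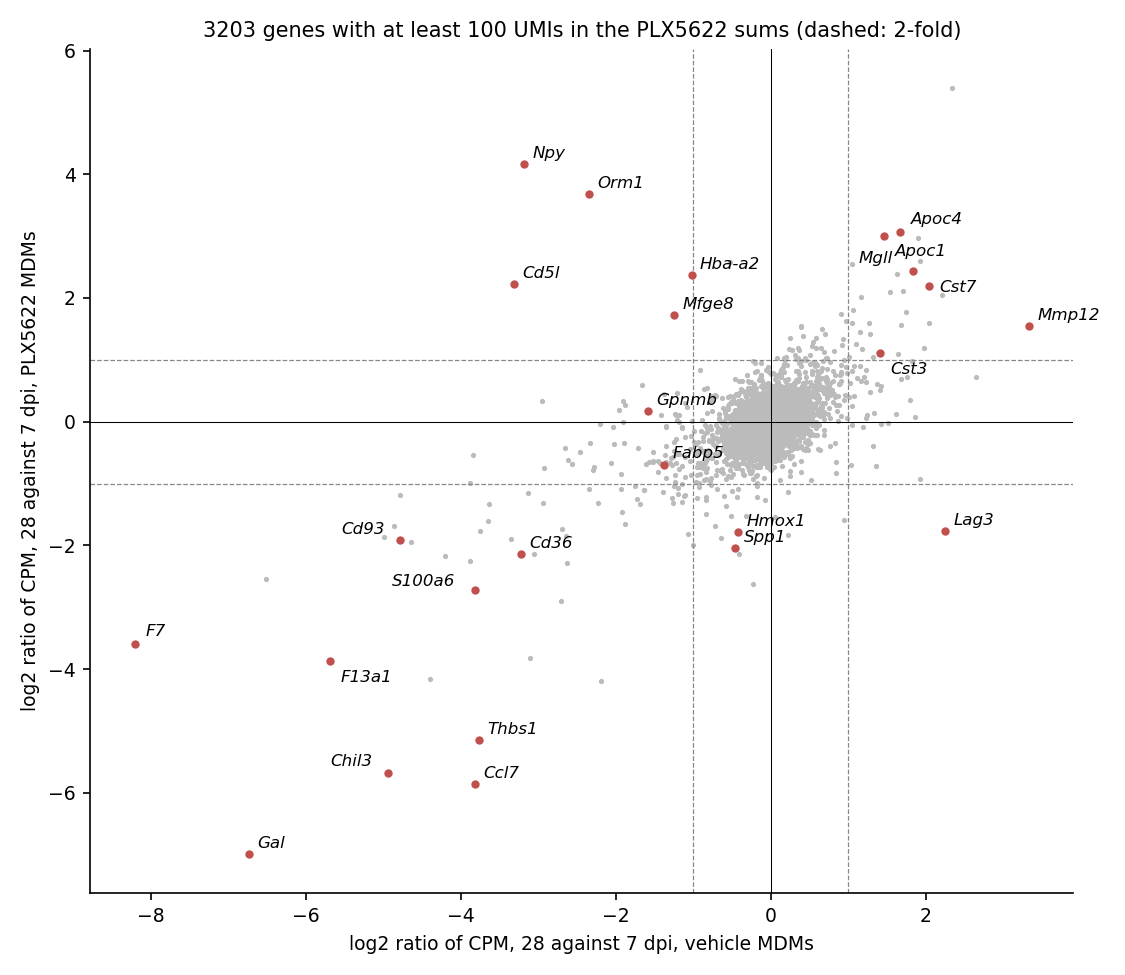
Log2 ratio of CPM, 28 against 7 dpi, for 3203 genes in MDMs of vehicle-fed mice (x axis) and of PLX5622-fed mice (y axis), 1 point per gene, dashed lines at 2-fold. *Thbs1*, *F13a1*, *Chil3* and *Cd36* lie low in both diets, *Apoc1*, *Apoc4* and *Cst7* high in both, and *Npy*, *Orm1*, *Cd5l* and *Mfge8* high under PLX5622 only, while *Gal*, listed at 0 at 28 dpi, is drawn at its bound.

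The genes that were lowest at 28 dpi included several that young, recruited monocytes and macrophages are known to express. *Thbs1*, which codes for the matrix protein thrombospondin 1, went from 386 (357 to 416) CPM to 10.9 (5.95 to 18.3) CPM, a log2 ratio of -5.15 (-6.03 to -4.39). *F13a1*, a clotting factor subunit made by monocytes and some tissue macrophages, went from 284 to 19.4 CPM (-3.87, -4.51 to -3.29), and *F7*, coagulation factor VII, from 104 to 8.55 CPM (-3.60, -4.63 to -2.73). The levels at the 2 times do not overlap within counting error for any of these genes. *Chil3*, a secreted lectin of recruited macrophages, stood on 208 UMIs at 7 dpi and 3 at 28 dpi (119 and 2.33 CPM, log2 ratio -5.67, -7.96 to -4.11). *S100a6*, a calcium-binding protein, went from 301 to 45.8 CPM (-2.72), *S100a11* from 307 to 62.9 CPM (-2.29) and *Cd36*, a scavenger receptor for oxidised lipid, from 227 to 51.3 CPM (-2.15). Most of these genes were also lower at 28 dpi in the reference cells, among them *Thbs1* (70.4 to 5.19 CPM, -3.76), *F13a1* (175 to 3.39 CPM, -5.69), *F7* (63.9 to 0.216 CPM, the latter on 3 UMIs), *S100a6* (-3.81) and *Cd36* (-3.22).

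Monocyte markers as a whole moved the same way. The 7 monocyte markers, among them *Ly6c2*, *Ccr2* and *Plac8*, summed to 205 CPM in the MDMs of PLX5622-fed mice at 7 dpi, with none at 0, and to 12.4 CPM at 28 dpi, with 2 of 7 at 0, and *Chil3* held 208 of their 358 UMIs at 7 dpi. Under vehicle the sums were 71.0 and 11.9 CPM. The 7 markers of border-associated macrophages summed to 458 and 61.4 CPM, with 2 and 3 of them at 0, but *F13a1* and *Pf4* supplied much of this, and *Mrc1*, the mannose receptor that defines these cells, was at 5.73 CPM at 7 dpi and 0 at 28 dpi.

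*Spp1*, *Rcan1*, *Dusp1* and *Fos* were lower at 28 dpi by more under PLX5622 than under vehicle, a difference that was not tested. *Rcan1*, an inhibitor of calcineurin, went from 81.9 to 13.2 CPM (log2 ratio -2.63, against -0.23 under vehicle), and *Dusp1*, a phosphatase that acts on MAP kinases, from 75.0 to 17.1 CPM (-2.13, against -0.41). *Fos*, an immediate early transcription factor, went from 220 to 55.2 CPM (log2 ratio -1.995, against -1.01). *Hmox1*, which breaks down heme, went from 465 to 135 CPM (-1.78, -2.03 to -1.54), against -0.42 under vehicle, and 1 cell held 23.5% of its UMIs at 7 dpi. Of the 15 lowest genes, 12 stayed past 2-fold lower under all 11 alternatives (*Thbs1*, *F13a1*, *F7*, *Bst1*, *S100a6*, *S100a11*, *Emb*, *Cd38*, *Cd36*, *Dusp1*, *Spp1* and *Fos*), and *Rcan1*, *Scgb1a1* and *Pf4* did not.

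The genes that were highest at 28 dpi included lipoprotein genes and *Cst7*. *Apoc1*, an apolipoprotein that travels with *Apoe*, went from 86.5 (73.2 to 101) CPM to 696 (651 to 743) CPM, a log2 ratio of 3.01 (2.76 to 3.27), and its neighbour in the same gene cluster *Apoc4* from 40.1 to 334 CPM (3.06, 2.69 to 3.44). *Cst7* went from 110.5 (95.5 to 127) CPM to 505 (467 to 545) CPM (2.19, 1.96 to 2.43). *Tspan7*, a tetraspanin, was at 18.3 and 144 CPM (2.97, 2.42 to 3.56), and *Colec12*, a scavenger receptor of the collectin family, at 12.0 and 73.0 CPM (2.60, 1.91 to 3.36). *Ch25h*, which makes 25-hydroxycholesterol, was at 25.2 and 132 CPM (2.39), and *Mgll*, a lipase for monoglycerides, at 16.0 and 86.3 CPM (2.43). All 7 were past 2-fold higher under vehicle too, from 1.47 for *Apoc1* to 2.04 for *Cst7*, and past 2-fold higher under PLX5622 in all 11 alternatives, though 1 MDM held 41.4% of the *Apoc1* UMIs at 28 dpi. The *Apoc1* ratio was 1.39 with each cell weighted alike, 1.30 after thinning, 1.50 among MDMs with at most 3000 genes and 1.51 without cells with UMIs of other lineages.

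*Apoc1* and *Apoc4* stood lower under PLX5622 than under vehicle at both times. *Apoc1* was at 375 CPM in vehicle MDMs at 7 dpi and 1035 CPM at 28 dpi, which gives log2 ratios of PLX5622 over vehicle of -2.12 (-2.36 to -1.88) and -0.57 (-0.67 to -0.47). *Cst7* was at 255 and 1047 CPM under vehicle, with log2 ratios of -1.21 (-1.42 to -0.998) and -1.05 (-1.17 to -0.94). *Apoe* itself, the main lipoprotein of macrophages, hardly differed between the times under PLX5622, with 73090 CPM at 7 dpi and 74407 CPM at 28 dpi (log2 ratio 0.03), and had log2 ratios over vehicle of -0.39 and -0.52.

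Another group of genes was higher at 28 dpi under PLX5622 and lower at 28 dpi under vehicle, and its UMIs came from few cells. *Npy*, neuropeptide Y, was at 22.3 (15.9 to 30.5) CPM at 7 dpi and 402 (368 to 438) CPM at 28 dpi, with 51.2 and 5.63 CPM under vehicle. *Orm1*, an acute-phase glycoprotein, was at 6.87 and 87.8 CPM, with 5.48 and 1.08 CPM under vehicle. *Mfge8*, a secreted bridge between phosphatidylserine on dead cells and integrins on phagocytes, was at 490 (458 to 524) CPM and 1624 (1555 to 1695) CPM, with 180 and 76.2 CPM under vehicle. At 28 dpi *Npy* was found in 23 of 161 MDMs, *Orm1* in 10 and *Mfge8* in 54, and the 16 MDMs (10%) with most UMIs of each gene held 98.3%, 100% and 96.4% of its UMIs.

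These cells overlapped. Of the 10 MDMs with *Orm1* at 28 dpi, 9 also had *Npy* and all 10 had *Mfge8*, and of the 23 with *Npy* 18 had *Mfge8*. At 7 dpi *Npy* was found in 10 MDMs and *Orm1* in 6, and only 3 MDMs had both. All cells with *Npy* or *Orm1* at 7 dpi had *Mfge8*, which was found in 48 of the 100 MDMs. The cells with *Npy* and *Orm1* at 7 dpi had medians of 24999 and 32437.5 UMIs, against 15945 in all MDMs of that time. Cells with *Npy* at 28 dpi were deep, with a median of 15858 UMIs against 5996 in MDMs without it, and a deep cell is more likely to show any rare transcript. Among MDMs with at most 3000 genes the log2 ratios of 28 against 7 dpi were 2.38 for *Npy*, 0.53 for *Orm1* and 0.12 for *Mfge8*, against 4.17, 3.68 and 1.73 over all MDMs. Whether these transcripts were made by a small set of cells in several mice or in 1 of the pooled mice cannot be told apart.

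Other genes rested largely on 1 cell. *Cd5l*, a scavenger-like protein of tissue macrophages, was at 14.3 and 66.8 CPM, with 1 cell holding 48.8% of its UMIs at 28 dpi, and its log2 ratio went from 2.22 to -0.56 without MDMs that carried UMIs of other lineages. *Hba-a2*, a hemoglobin gene, was at 20.0 and 103 CPM, with 76.7% of its UMIs at 28 dpi in 1 cell, and the 4 erythroid markers present in the table summed to 30.4 and 144 CPM. *Ccl5* at 7 dpi lay almost wholly in 1 cell (306 of 315 UMIs), and all 62 UMIs of *Cxcl10* at 28 dpi lay in 1 cell. *Igfbp5*, which the rule for named genes does not cover since it had 7 UMIs at 7 dpi, was named after its values were seen: it had 218 UMIs at 28 dpi, 29.8% of them in 1 cell.

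**Figure D4:**
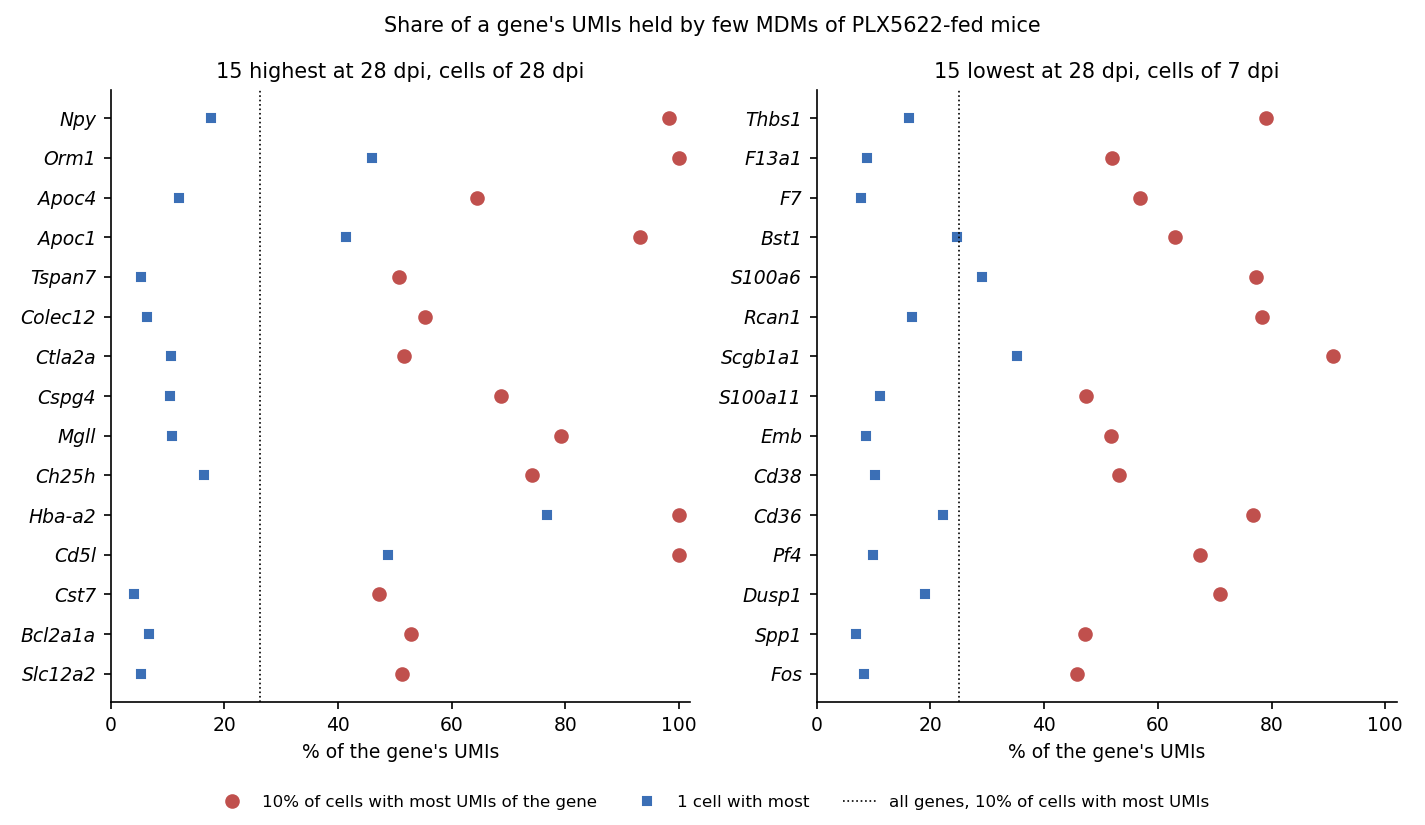
Percent of a gene's UMIs held by the 10% of MDMs with most of it (circles) and by the single MDM with most of it (squares), for the 15 genes highest at 28 dpi in the 161 cells of that time (left) and the 15 lowest in the 100 cells at 7 dpi (right). The dotted line is the share of all UMIs in the 10% deepest MDMs, and *Npy*, *Orm1*, *Apoc1*, *Hba-a2* and *Cd5l* lie between 93.1% and 100% while *Cst7* and *Spp1* both lie at 47.2%.

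*Gal* and *Ccl7* were found in the MDMs of PLX5622-fed mice at 7 dpi and nearly gone at 28 dpi, and *Lag3* was lower at 28 dpi. *Gal*, which codes for the neuropeptide galanin, stood on 520 UMIs in 17 of 100 MDMs at 7 dpi (298 CPM) and on none at 28 dpi, so its log2 ratio of 28 against 7 dpi was at most -7.00, with a floor of 3 counts per library. Its UMIs came from deep cells, with a median of 28940 UMIs per cell with *Gal*, and with at most 3000 genes per cell 1 UMI was left at 7 dpi, so that its log2 ratio over vehicle, 3.69 with all cells, was -3.11 on that UMI. *Lag3*, an inhibitory receptor, was at 178 CPM at 7 dpi in 43 of 100 MDMs and 52.1 CPM at 28 dpi, with 22.6 and 107 CPM under vehicle. The order of the 2 times was thus reversed between the diets for *Lag3*, with log2 ratios of -1.77 (-2.17 to -1.38) and 2.25 (2.09 to 2.40). Among MDMs with at most 3000 genes the *Lag3* ratio under PLX5622 was -0.67, short of 2-fold. *Ccl7*, a chemokine for monocytes, had 158 UMIs at 7 dpi, 92 of them in 1 cell, and 2 at 28 dpi. In vehicle MDMs with at least 500 genes *Gal* had 460 UMIs at 7 dpi and 0 at 28 dpi, and *Ccl7* had 465 and 23.

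The gene lists below were read by their counts of members past 2-fold and by their medians. Beside these stand the values of all 3203 genes: 2.06% past 2-fold higher, 2.5% past 2-fold lower and a median of -0.0077. Most lists are short, and their members were chosen with earlier results known, so their counts are a description only. Of the 26 genes of lipid uptake, storage and efflux, 21 had enough UMIs, 4 were past 2-fold higher (*Apoc1*, *Apoc4*, *Ch25h* and *Mgll*) and 2 lower (*Cd36* and *Plin2*, the coat protein of lipid droplets, 681 and 332 CPM), with a median of -0.07. The receptor *Trem2* (2522 and 2801 CPM) and the cholesterol carrier *Npc2* (2146 and 2616 CPM) were near their level at 7 dpi. The list of lysosomal proteases and hydrolases has 25 genes, of which 24 had enough UMIs, with a median of -0.01. The 1 member past 2-fold was *Cst3*, at 3503 and 7540 CPM (log2 ratio 1.11), which codes for a protease inhibitor and not for a protease or hydrolase. The proteases *Ctsd* (19593 and 23606 CPM) and *Ctsb* (10630 and 10562 CPM) differed less. None of the 15 measured members of the lysosomal proton pump was past 2-fold, 4 of the 15 had a ratio above 0, and their median was -0.23, with a log2 ratio of their summed CPM of -0.20 (-0.25 to -0.15).

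The S100 proteins and annexins stood apart among the lists. Of 12 measured members, 6 were past 2-fold lower at 28 dpi, none had a ratio above 0, and the median was -1.07. These 6 were *S100a4* (125 to 6.99 CPM), *S100a6*, *S100a8*, *S100a10* (144 to 57.5 CPM), *S100a11* and *Anxa1* (131 to 52.1 CPM), while *Anxa5* went from 786 to 615 CPM (log2 ratio -0.36). The reference cells were much alike in this list, with 6 of 13 measured members past 2-fold lower, 2 above 0 and a median of -0.84. *S100a4* and *S100a6* were also at 502 and 834 CPM in the astrocytes, endothelial and T cells of the library at 28 dpi, and the T cell markers were at 0 in the MDMs at both times. Of 13 immediate early and stress genes 3 were past 2-fold lower (*Fos*, *Dusp1* and *Ier3*) and the median was -0.69, with *Jun* at 284 and 154 CPM. In the reference cells *Jun* was at 282 and 247 CPM.

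Chemokine and matrix genes went both ways. Of 13 measured chemokines and receptors, 4 were past 2-fold higher, *Ccl3* (184 to 392 CPM), *Ccl4* (194 to 399 CPM), *Ccl12* and *Cxcl14* (50.4 to 176 CPM), and 4 lower, *Ccl2* (92.8 to 26.4 CPM), *Ccl5*, *Ccl7* and *Pf4*. *Ccl3* and *Ccl4* code for the inflammatory proteins MIP-1 alpha and beta, and among MDMs with at most 3000 genes their log2 ratios were 0.46 and 0.13, in place of 1.09 and 1.04. *Cx3cr1* was at 470 and 934 CPM (log2 ratio 0.99) and thus just short of 2-fold. Of 12 matrix proteins, proteases and inhibitors, 2 were past 2-fold higher, *Mmp12*, macrophage elastase (75.0 to 218 CPM), and *Sparc* (207 to 556 CPM), and 4 lower, *Thbs1*, *Mmp14*, *Adam8* and *Tgfbi* (153 to 73.0 CPM). 1 cell held 74.8% of the *Mmp12* UMIs at 7 dpi.

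**Figure D5:**
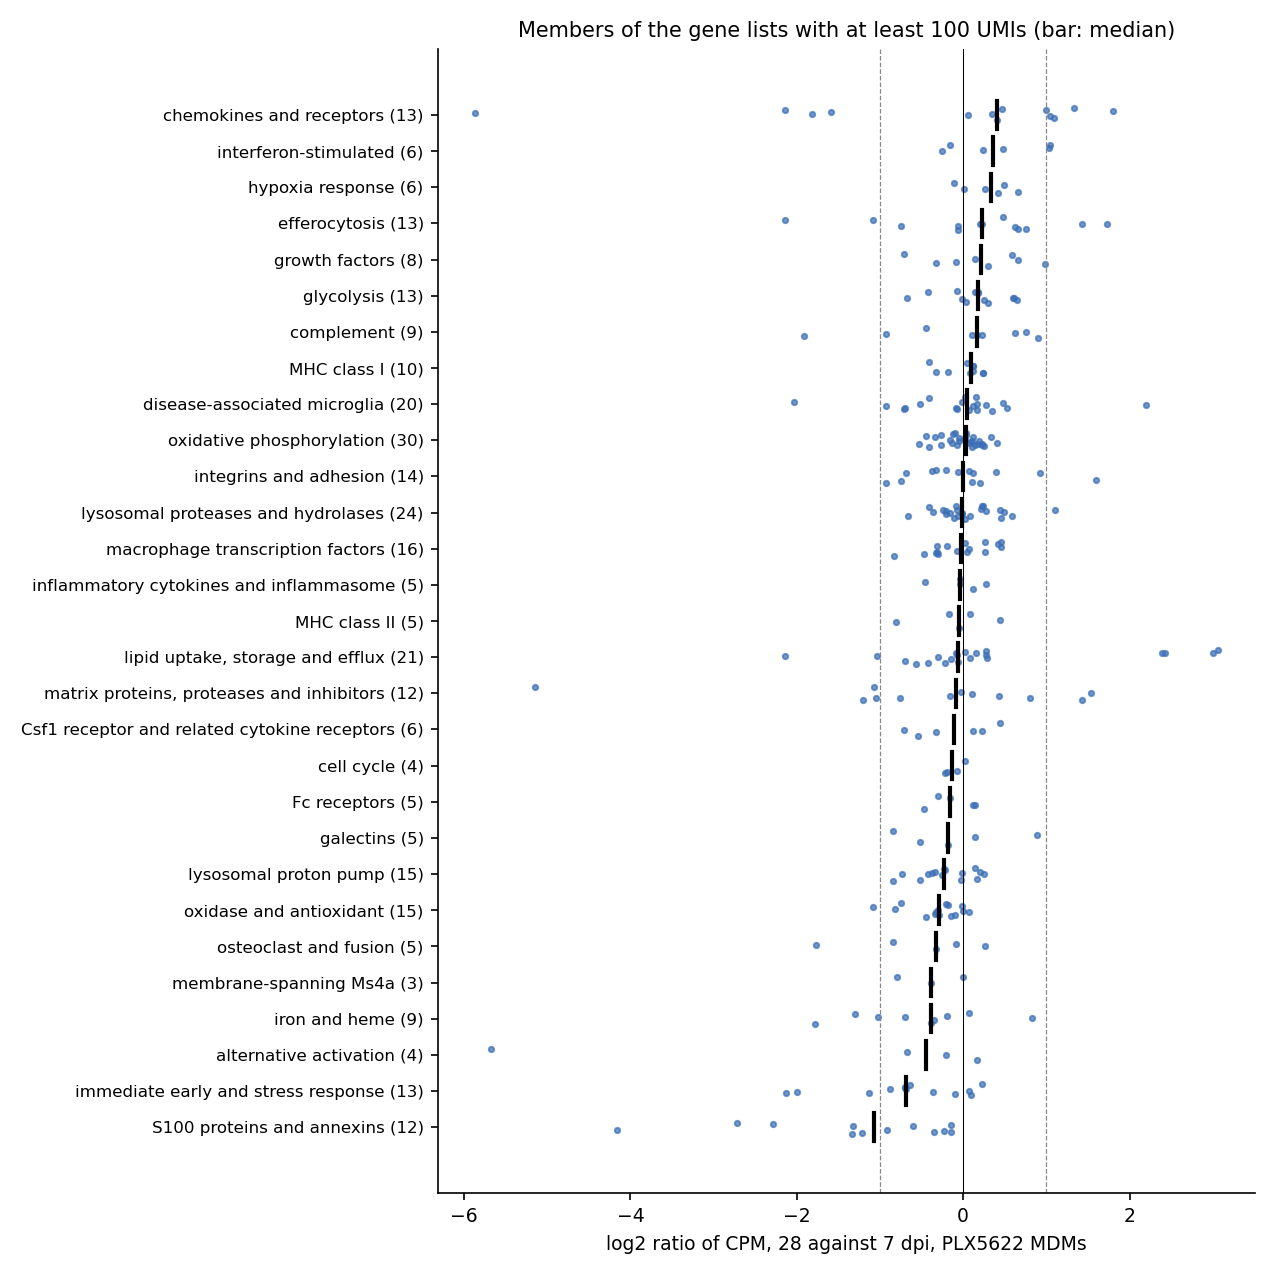
Log2 ratio of CPM, 28 against 7 dpi, of the members of each gene list in MDMs of PLX5622-fed mice (points: genes with at least 100 UMIs, bars: medians, dashed lines: 2-fold, number of genes in brackets), for lists with at least 3 such genes. The S100 proteins and annexins have the lowest median, -1.07, and most medians lie within 0.5 of 0.

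The subunits of complement C1q and *Igf1* were higher at 28 dpi without passing 2-fold. *C1qa* went from 3747 to 6334 CPM (log2 ratio 0.76) and *C1qc* from 3361 to 5159 CPM (0.62), while *C1qb* was at 4878 and 5687 CPM (0.22), and 1 of 9 measured complement genes was past 2-fold, the receptor *Cd93*, at 216 and 57.5 CPM (-1.91). *Igf1*, a growth factor for neurons and glia, was at 554 and 834 CPM (0.59), and it was found in 38.5% of thinned MDMs at 7 dpi and 76.1% at 28 dpi, against 3.23% and 1.67% of the astrocytes, endothelial and T cells. None of the 8 measured growth factors was past 2-fold, though *Mif* came close, with 272 and 537 CPM (0.98). *Tgfb1* was at 165 and 132 CPM (-0.33).

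Several gene lists had no member past 2-fold, against 2.06% of all genes past it higher and 2.5% lower, and lists this short say little by that count. None of 30 genes of oxidative phosphorylation (median 0.03), 13 of glycolysis (0.18), 10 of MHC class I (0.10), 5 of MHC class II (-0.05), 16 macrophage transcription factors (-0.03), 5 Fc receptors (-0.16), 6 genes of the *Csf1* receptor list (-0.11), 6 of the hypoxia response (0.34), 5 galectins (-0.18), 3 Ms4a genes (-0.39) and 4 cell cycle genes (-0.13) was past 2-fold. Cholesterol synthesis had 1 gene with enough UMIs, at -0.25 (log2 ratio). None of the 78 measured ribosomal protein genes was past 2-fold either, but 67 of them had a ratio above 0, with a median of 0.17. *Cd74*, the invariant chain of MHC class II, was at 148 and 143 CPM, though 1 cell held 39.9% of its UMIs at 7 dpi. Under vehicle *Cd74* was at 82.8 and 172 CPM. Of the inflammatory cytokine and inflammasome list, 5 genes had enough UMIs and none was past 2-fold, and the cytokines themselves were scarce, *Tnf* at 13.7 and 17.1 CPM and *Il1b* on 7 UMIs and 1. Interferon-stimulated genes had 2 of 6 members past 2-fold higher, *Isg15* (23.5 to 48.2 CPM) and *Ifi27l2a* (112 to 229 CPM). Of the iron and heme list 3 of 9 were past 2-fold lower (*Hmox1*, *Slc48a1* and *Ncoa4*), and the ferritin chains *Fth1* (21519 and 22596 CPM) and *Ftl1* (22729 and 17382 CPM) were within 2-fold. The osteoclast and fusion list had 1 of 5 past 2-fold lower, *Acp5*, an acid phosphatase, at 455 and 134 CPM. The list of alternative activation had 1 of 4, *Chil3*, and *Arg1*, arginase 1, stood on 76 UMIs at 7 dpi and 5 at 28 dpi. Of 13 efferocytosis genes 2 were past 2-fold higher (*Pros1* and *Mfge8*) and 2 lower (*Cd36* and *Stab1*), of 14 integrins and adhesion genes 1 was (*Cd81*, 263 to 797 CPM), of 15 oxidase and antioxidant genes 1 was lower (*Ncf4*), and of 20 genes known from disease-associated microglia 2 were (*Cst7* higher and *Spp1* lower).

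The receptor that the drug targets was present in these cells. *Csf1r* was at 384 CPM in the MDMs of PLX5622-fed mice at 7 dpi and 521 CPM at 28 dpi, with 671 UMIs at each time, and at 547 and 752 CPM in vehicle MDMs. In the microglia that remained in the PLX5622 libraries it was at 2238 and 1917 CPM. Its ligand *Csf1* was at 145 and 88.6 CPM under PLX5622 and 55.9 and 144 CPM under vehicle, so that the order of the times differed between the diets.

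Compared with vehicle MDMs at the same time, 152 of 8295 genes (1.83%) were past 2-fold higher and 180 (2.17%) lower at 7 dpi, and 178 of 7635 (2.33%) higher and 189 (2.48%) lower at 28 dpi. At 7 dpi *Gal*, *Hp* (haptoglobin, 55.0 against 6.24 CPM) and *Lag3* were among the 10 highest and *Cd5l* (14.3 against 158 CPM), *Apoc1*, *Apoc4*, *Ch25h* and *Klf2*, a transcription factor, among the 10 lowest. At 28 dpi *Orm1*, *Npy*, *Mfge8*, *Cd24a* (103 against 4.26 CPM), *Anxa1* (52.1 against 3.46 CPM), *Ahnak* (85.5 against 5.84 CPM) and the interleukin 7 receptor *Il7r* (65.3 against 3.97 CPM) were among the highest. Several of these are genes that were lower at 28 than at 7 dpi under both diets but less so under PLX5622: *Ahnak* was at 274 CPM at 7 dpi under PLX5622 and 170 CPM under vehicle, *Cd24a* at 233 and 117 CPM, and *F13a1*, *Cd93* and *S100a6* showed the same order. At 28 dpi *Cd93* was at 57.5 CPM under PLX5622 and 5.99 CPM under vehicle, a log2 ratio of 3.26 (2.79 to 3.73), and *S100a6* at 45.8 and 10.7 CPM (2.10, 1.64 to 2.55). *Ahnak*, found in 27 of 161 MDMs at 28 dpi, and *Il7r*, found in 21, were also at 442 and 249.7 CPM in the astrocytes, endothelial and T cells of that library, and the part of those transcripts in the result was not tested.

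Lower under PLX5622 at 28 dpi were *Postn* (7.77 against 74.0 CPM), a matrix protein, *S100a9* (15.5 against 82.9 CPM), *Klf2* (11.7 against 49.8 CPM) and the chemokines *Ccl9* (38.9 against 139 CPM) and *Ccl6* (170 against 555 CPM). *S100a9* is a defining gene of neutrophils, and the 6 neutrophil markers, *S100a9* among them, summed to 81.6 CPM in these MDMs and 161 CPM in vehicle MDMs, with none at 0 in either. The part of neutrophil transcripts in the result was not tested. Of the MDMs of PLX5622-fed mice, 58 of 100 at 7 dpi and 120 of 161 at 28 dpi carried fewer than 3 UMIs of T cell, B cell, astrocyte, endothelial, oligodendrocyte, fibroblast and ependymal markers together. The astrocyte markers summed to 51.5 and 52.1 CPM and the endothelial markers to 26.3 and 65.3 CPM in MDMs, against 25170 and 13980 CPM in their own clusters at 7 dpi. In the same cells dendritic cell markers summed to 1.15 and 1.55 CPM, B cell markers to 9.73 and 4.66 CPM, oligodendrocyte markers to 71.6 and 61.4 CPM, fibroblast and mural markers to 5.73 and 0 CPM, and ependymal markers to 14.9 and 2.33 CPM. The 8 microglia markers summed to far more, 3073 and 4998 CPM, against 13280 and 13120 CPM in the microglia cluster of the same libraries. In vehicle MDMs they summed to 4065 and 5861 CPM. The part of microglia transcripts in the ratios of 28 against 7 dpi was not tested.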

How the data were processed

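Single cells of pooled cords were captured on 10x Chromium, and the authors made the deposited table of UMI counts with Cell Ranger and Seurat, without normalization. Their methods state that cells with over 20% mitochondrial transcripts, or with fewer than 200 or more than 3000 genes, were removed, but the table holds no mitochondrial genes and keeps cells above 3000 genes. The cluster numbers are the authors', and each library's deposited barcodes that the table lacks all had fewer than 200 genes. The bulk data, for which the labels name STAR 2.4.0 and HTSeq 0.6.1, were not used here.

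The MDM counts of a library were summed and divided by their total (CPM, exact Poisson 95% intervals). Ratios have exact conditional binomial 95% intervals, and shares exact binomial ones (Clopper-Pearson). No test was run, since each condition has 1 library. Genes with at least 100 UMIs in the 2 sums together were compared, and a log2 ratio of at least 1 in size is called past 2-fold. A gene at 0 was set to a floor of 3 counts. Genes are named if they mark a cell type, if they are among the 15 highest or lowest of 28 against 7 dpi under PLX5622 or the 10 highest or lowest of PLX5622 against vehicle at a time (at least 10 UMIs in each sum), or if they belong to a functional list and were past 2-fold or among up to 4 others with most UMIs. *Igfbp5*, *Arg1*, *Il1b*, *Tnf* and the genes ranked by correlation with *Gpnmb* fall outside this rule and were chosen after their values were seen. The members, the 30 functional lists and the 14 marker lists were chosen with earlier results of these data known.

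For shares, each cell was thinned at random to 2000 UMIs. Doublets were called per library with Scrublet in scanpy 1.11.5 at an expected rate and were left in. Values were recomputed under 14 other settings, including factors from edgeR 4.0.16 and DESeq2 1.42.0 (scaling only, in R 4.3.3), and 2 more that were added after the data were seen: cells with at most 3000 genes, and a minimum of 50 UMIs expected in the shallower sum. The code was tested on simulated data and ran under Python 3.11.15 with pandas 2.3.3, scipy 1.17.1 and numpy 2.4.6.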

Additional observations from a re-analysis of the deposited data

Results flagged for a closer look

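For 6 genes the log2 ratio of 28 against 7 dpi was past 2-fold in one direction in the MDMs of PLX5622-fed mice and past 2-fold in the other in those of vehicle-fed mice. It was 4.17 under PLX5622 and -3.19 under vehicle for *Npy*, 3.68 and -2.34 for *Orm1*, 2.37 and -1.02 for *Hba-a2*, 2.22 and -3.31 for *Cd5l*, 1.73 and -1.24 for *Mfge8*, and -1.77 and 2.25 for *Lag3*. With 1 library per condition the difference was not tested for any of them. *Npy*, *Orm1*, *Mfge8* and *Cd5l* drew nearly all their UMIs at 28 dpi from 16 of 161 MDMs, and *Hba-a2* drew 76.7% of them from 1 MDM. *Lag3* had a UMI in 43 of 100 MDMs at 7 dpi and 44 of 161 at 28 dpi. Its log2 ratio under PLX5622 was -0.67 among MDMs with at most 3000 genes and -1.13 without the 10% of cells with most UMIs.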

How the results depend on the processing

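Counts of genes past 2-fold depended on the minimum of UMIs and on which cells were kept, and the cause was not tested. For 28 against 7 dpi under PLX5622 the higher and lower counts, 66 and 80, were 134 and 143 with at least 50 UMIs, 33 and 45 with at least 200, 619 and 554 with at least 10, 14 and 10 with every cell thinned to 2000 UMIs (524 genes compared), and 30 and 24 with cells of at most 3000 genes (1314 genes), while without cells with UMIs of other lineages the higher count was 37 (1695 genes). Under vehicle, 301 and 329 were 176 and 200 after thinning and 803 and 788 with at least 10 UMIs. For PLX5622 against vehicle at 7 dpi, 152 and 180 were 246 and 324 with at least 50 UMIs, 86 and 84 with at least 200, 961 and 480 with at least 10, 465 and 606 with cells of at most 3000 genes and 49 and 28 with at least 50 expected UMIs, the higher count was 294 with each cell weighted alike, and the lower one was 408 after thinning and 338 without cells of other lineages. At 28 dpi, 178 and 189 were 334 and 292 with each cell weighted alike, 293 and 345 with at least 50 UMIs, 101 and 93 with at least 200, 900 and 534 with at least 10, and 40 and 31 with at least 50 expected UMIs. The limit of 3000 genes and the expected minimum were chosen after the data were seen. The other 82 counts stayed within 1.5 times.

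Sizes of log2 ratios also depended on the cells kept. For 28 against 7 dpi under PLX5622, with cells of at most 3000 genes, *Orm1* (0.53), *Mfge8* (0.12) and *Ccl3* (0.46) fell short of 2-fold. *Thbs1* (-5.31) and *Cst7* (2.14) stayed past it. Of the 15 highest and the 15 lowest genes, 12 each stayed past 2-fold in every alternative. Of the named genes past 2-fold, some log2 ratios changed sign. For 28 against 7 dpi under PLX5622 these were *Cd5l* (-0.56) and *Ccl5* (6.26) without cells of other lineages, *Ccl5* (3.52) without the 10% of cells with most UMIs, and *Scgb1a1* (0.51), *Ccl5* (1.84) and *S100a8* (0.33) with cells of at most 3000 genes. Over vehicle at 7 dpi they were *Scgb1a1* (-0.48), *Gal* (-3.11, on 1 UMI), *Smagp* (0.09), *Acp5* (-0.22), *Atp6v0d2* (-0.28) and *Mmp12* (at most -1.76) with cells of at most 3000 genes, *Ccl5* (-4.12, on 1 UMI), *Mfge8* (-0.86) and *Mmp12* (at most -3.03) without cells of other lineages, and *Ccl5* (-1.90) without the deepest cells. At 28 dpi they were *Cd5l* (-0.77) and *Mamdc2* (-0.12) without cells of other lineages. Where the first group had no UMI the floor of 3 counts set an upper bound above 0, which shows no change of sign: *Gal*, 28 against 7 dpi with cells of at most 3000 genes (at most 0.38), and *Cxcl10* over vehicle at 7 dpi with those cells (at most 0.24) and after thinning (at most 1.35). Of the named genes within 2-fold, floors included, 50 of 113 for 28 against 7 dpi, 77 of 152 over vehicle at 7 dpi and 44 of 139 at 28 dpi changed sign in at least 1 alternative, among them *Gpnmb* (0.17 to -0.52) for 28 against 7 dpi, *Fabp5* (0.30 to -0.72) at 7 dpi and *Plin2* (0.42 to -0.15) at 28 dpi, all with cells of at most 3000 genes. No paired analysis was possible because each condition has 1 library.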
